A study of Homo sapiens with 2 samples.

Results

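The SR proteins are a family of splicing factors, and the data described here are the transcripts of 10 of their genes in a human colorectal carcinoma cell line. The genes were SRSF1, SRSF2, SRSF3, SRSF4, SRSF5, SRSF6, SRSF7, SRSF9, SRSF10 and SRSF11. They were chosen by name, not by any measured value, and are 10 of the 23303 named genes in the files. Every RefSeq transcript of these symbols was taken, together with every transcript assembled from the reads that shared an exact intron with one of them on the same strand. That gave 33 transcript models in the library labelled USP49 knockdown, of 66837 in all, and 31 in the control library, of 65434 in all. In each library 25 of them were RefSeq transcripts, and the assembled ones numbered 8 in the library labelled USP49 knockdown and 6 in the control library.

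Both libraries were made from polyadenylated RNA of HCT116 cells that carry a tetracycline-inducible USP49 knockdown construct of the T-Rex expression system and were grown in blasticidin and puromycin. USP49 takes ubiquitin off histone H2B. One library is labelled USP49 knockdown and the other control. The treatment text, which gives doxycycline and a harvest at 36 h, is the same for both, and whether the RNA control received doxycycline is not stated. There was 1 library per group, so every difference below compares 2 single libraries, carries no p-value and cannot be held against a spread between replicates. The recovered totals were 19960541 fragments in the library labelled USP49 knockdown and 16378905 in the control library, a ratio of 1.22.

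SR proteins bind exonic sequences of pre-mRNA through RNA recognition motifs and recruit the spliceosome through a domain rich in arginine and serine. Most of their genes hold a poison exon or a similar cassette or intron, an ultraconserved stretch whose inclusion brings in an early stop codon and sends the transcript to nonsense-mediated decay. A high level of an SR protein favours inclusion of its own poison exon, so that these exons work as a feedback on the protein's amount. RefSeq lists such forms as noncoding transcripts, with names that start NR_, beside the coding forms, whose names start NM_.

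The joins that set these forms apart are printed first, because the results below turn on them. The sequences are those of GENCODE release 29 transcripts on GRCh38. They were matched to the RefSeq forms through GENCODE's own cross-references, and for the assembled form of SRSF5 by its exon lengths. In each line the lower-case letters are the last 30 bases shared by the forms. Capitals mark the alternative bases up to and including the first stop codon in frame, or, in the coding form, the next 39 bases. In SRSF3, which codes for the smallest SR protein, the poison exon of NR_036610 has 456 bases at chr6:36599821-36600276 on the plus strand. The first 34 of them end in a TGA stop, with 3 exon junctions after it.
SRSF3 NR_036610: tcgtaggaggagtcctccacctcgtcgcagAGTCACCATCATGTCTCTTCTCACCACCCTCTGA
SRSF3 NM_003017: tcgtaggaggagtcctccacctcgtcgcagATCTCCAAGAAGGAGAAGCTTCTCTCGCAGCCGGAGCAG
In SRSF6 the poison exon of NR_034009 has 268 bases at chr20:43459153-43459420 on the plus strand. The reading frame runs through 152 of them to a TAG stop, with 4 exon junctions after it.
SRSF6 NR_034009: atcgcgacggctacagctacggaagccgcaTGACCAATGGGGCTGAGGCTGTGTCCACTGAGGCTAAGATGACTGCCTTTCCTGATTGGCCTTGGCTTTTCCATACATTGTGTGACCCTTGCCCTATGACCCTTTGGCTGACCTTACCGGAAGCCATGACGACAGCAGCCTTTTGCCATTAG
SRSF6 NM_006275: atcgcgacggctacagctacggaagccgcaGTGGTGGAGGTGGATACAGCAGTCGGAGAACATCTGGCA
In SRSF1 the coding form NM_001078166 keeps an intron of 200 bases, at chr17:58005601-58005800 on the minus strand, and reaches a TAA stop after 54 of them, with 0 junctions after the stop.
SRSF1 NM_001078166: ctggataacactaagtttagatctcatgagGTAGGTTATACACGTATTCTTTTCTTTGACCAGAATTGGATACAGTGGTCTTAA
SRSF1 NM_006924: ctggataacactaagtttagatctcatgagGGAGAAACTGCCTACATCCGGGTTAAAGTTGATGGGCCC
In SRSF5 an assembled form keeps an intron of 1215 bases, at chr14:69769252-69770466 on the plus strand, and meets a TGA stop after 9 of them, with 2 junctions after it. Its inner exon lengths are those of a model of 22.7 FPKM found only in the library labelled USP49 knockdown. Models of 19.4 FPKM in that library and 34.5 FPKM in the control library keep this intron and also a later one of 88 bases. Fewer junctions follow the stop in them.
SRSF5 assembled: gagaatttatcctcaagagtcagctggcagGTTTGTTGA
SRSF5 NM_006925: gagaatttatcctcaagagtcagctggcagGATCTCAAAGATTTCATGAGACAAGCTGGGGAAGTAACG
GENCODE classes the SRSF3 and SRSF6 poison forms under nonsense-mediated decay, the SRSF5 form as a retained intron and the SRSF1 form as protein coding.

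The labels were checked first on USP49. Its summed level was 1.10 FPKM (fragments per kilobase of transcript, scaled to depth) in the library labelled USP49 knockdown, against 2.88 FPKM in the control library. On its RefSeq exons the order was the other way round, at 1.09 FPKM in the library labelled USP49 knockdown and 0.894 FPKM in the control library. The check therefore does not settle the label, and the library is called by it throughout. Of the colorectal epithelium markers 5 of 7 reached 1 FPKM, with summed levels of 552 FPKM in the library labelled USP49 knockdown and 598 FPKM in the control library. Fibroblast markers reached it in 1 of 5 cases, leukocyte markers in 0 of 4 and endothelium markers in 0 of 3.

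By summed FPKM the SR genes stood at nearly the same level in the library labelled USP49 knockdown and in the control library. A gene's level is given in FPKM scaled to the recovered totals and summed over its models, and the ratio is log2 of the library labelled USP49 knockdown over control after adding a pseudocount of 1 FPKM, which pulls the ratios of low genes toward 0. The median ratio was 0.02 over the 10 SR genes and −0.0017 over the 11632 genes that averaged at least 1 FPKM. Of the SR genes 8 lay above 0 and 2 below, but 2 lay above and 8 below with TPM scaling (all values of a library set to one common total), and 10 above and 0 below with no scaling. Of the 9 SR genes that averaged at least 1 FPKM 0 were past 2-fold, while 3.41% of all such genes were. By fragment density on RefSeq exons the median was 0.02 for SR genes and −0.0032 for all genes, and 0 of 9 were past 2-fold, where 1.12% of all genes were.

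**Figure D1:**
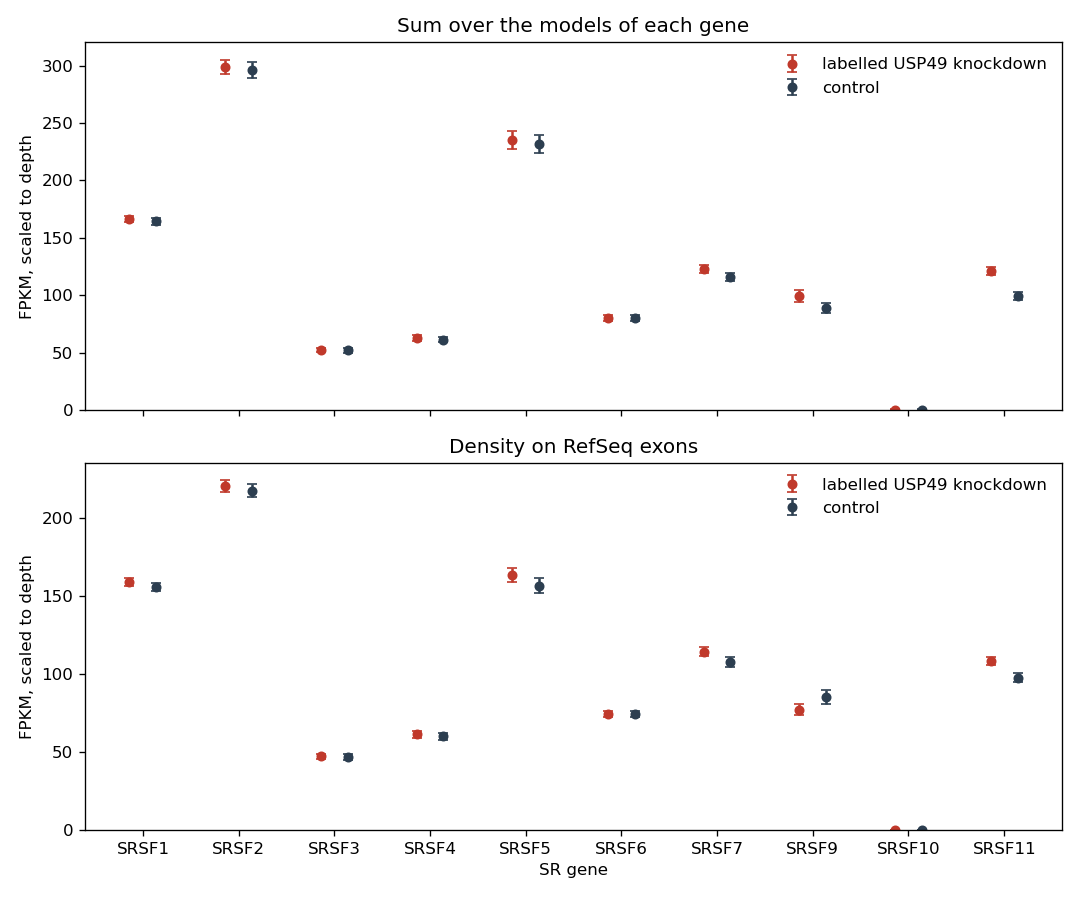
Levels of the 10 SR genes in depth-scaled FPKM, as the sum over each gene's models (top) and as fragment density on its RefSeq exons (bottom), with the library labelled USP49 knockdown in red left of the control library in dark blue. Points are single libraries. Bars are the deposited intervals of a gene's models, joined as the root of their summed squares (top), and 2 Poisson SD (bottom). SRSF2 is highest by the sum, at 299 FPKM in the library labelled USP49 knockdown and 296 FPKM in the control library, and SRSF10 lies near 0 in both.

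SRSF2, SRSF5, SRSF1 and SRSF6 had intervals that overlapped between the libraries. SRSF2, a core component of nuclear speckles, had 299 FPKM (interval 293 to 305) in the library labelled USP49 knockdown and 296 FPKM (290 to 303) in the control library. SRSF5 had 235 FPKM (227 to 243) in the library labelled USP49 knockdown and 231 FPKM (224 to 239) in the control library. SRSF1, which fosters exon inclusion and also acts in translation and as an oncogene, had 166 FPKM (164 to 169) in the library labelled USP49 knockdown and 164 FPKM (161 to 167) in the control library. Their log2 ratios were 0.01, 0.02 and 0.02. SRSF6 had 80.1 FPKM (77.7 to 82.4) in the library labelled USP49 knockdown and 80.4 FPKM (77.8 to 83.0) in the control library, a ratio of −0.0060. Fragment numbers scaled to depth do not allow for model length. Their ratios were 1.15 (exact interval 1.13 to 1.17) for SRSF1 and 1.06 (1.02 to 1.10) for SRSF5. For SRSF6 the ratio was 0.953 (0.918 to 0.990), and for SRSF2 1.01 (0.988 to 1.04). Only the SRSF2 interval included equality. The SRSF1 count includes 7950 fragments of an assembled model of 15823 bases in the library labelled USP49 knockdown. In the control library it includes 4466 fragments of a model of 9534 bases. Both models run past the RefSeq end, and on exons the SRSF1 ratio was 0.03.

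The lower members were as close. SRSF4, the longest of the classical SR proteins, had 62.7 FPKM in the library labelled USP49 knockdown and 61.3 FPKM in the control library, a log2 ratio of 0.03. Only its single RefSeq form, NM_005626, carried fragments, 3106 in the library labelled USP49 knockdown and 2492 in the control library. SRSF3 had 52.2 FPKM in the library labelled USP49 knockdown and 52.1 FPKM in the control library, a ratio of 0.0051. The order of the levels was the same in both libraries and by both measures, from SRSF2 through SRSF5, SRSF1, SRSF7, SRSF11, SRSF9, SRSF6 and SRSF4 down to SRSF3 and SRSF10. Some neighbours in that order had overlapping intervals, such as SRSF5 and SRSF1 on exons in both libraries, and SRSF7 and SRSF11 by the sum in the library labelled USP49 knockdown.

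SRSF10, which represses splicing when dephosphorylated in heat shock and mitosis, was almost without fragments. Its 7 RefSeq forms held 18 fragments (0.326 FPKM) in the library labelled USP49 knockdown and 16 (0.357 FPKM) in the control library. The fragment ratio scaled to depth was 0.923, with an exact interval of 0.444 to 1.93, so a level lower by 2-fold lies within the counting error at this depth and one higher by 2-fold lies outside it. NM_001191005 held 14 fragments in the library labelled USP49 knockdown and 12 in the control library, and NM_001191006 held 4 in each, while its other forms were listed at 0. A short unspliced model with no strand, inside an intron at 24175248 on chromosome 1 (hg18), held 25 fragments in the library labelled USP49 knockdown and 24 in the control library and is not counted for the gene. The RefSeq table lists 2 pseudogenes of SRSF10, and how the authors' mapping treated reads that match a copy is not given in the sources used here.

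SRSF7, SRSF9 and SRSF11 had intervals that did not overlap between the libraries by either measure. That was 3 of the 9 that averaged at least 1 FPKM, where 27.5% of all genes did so by the sum and 15.5% on exons. SRSF7, which has a zinc knuckle and links splicing to mRNA export, had 123 FPKM (119 to 126) in the library labelled USP49 knockdown and 116 FPKM (112 to 119) in the control library. Its log2 ratio was 0.08 both by the sum and on exons, and −0.06 with TPM scaling, which moved the median of all genes to −0.06. Both of its RefSeq forms, NM_001031684 and NM_001195446, were listed at 0 in both libraries. All of its fragments, 5691 in the library labelled USP49 knockdown and 4402 in the control library, lay on an assembled model with the introns of NM_001031684 and a slightly shorter end. In bulk RNA, fewer cells that express a gene and less of its RNA per cell cannot be told apart.

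For SRSF9 the direction turned with the gene measure. By the sum it had 99.3 FPKM (94.0 to 105) in the library labelled USP49 knockdown and 89.0 FPKM (84.6 to 93.5) in the control library, a log2 ratio of 0.16. On RefSeq exons it had 77.3 FPKM in the library labelled USP49 knockdown and 85.4 FPKM in the control library, a ratio of −0.14. Fragment numbers were 1799 in the library labelled USP49 knockdown and 1627 in the control library, a depth-scaled ratio of 0.907 with an exact interval of 0.848 to 0.971. All control fragments lay on NM_003769, which has 1163 exonic bases. In the library labelled USP49 knockdown 73.2% lay on an assembled model with the same introns but a shortened last exon and 897 bases in all. With each model's fragments spread evenly over its length, the first 3 exons had 99.3 FPKM in the library labelled USP49 knockdown and 89.0 FPKM in the control library. The last exon had 57.1 FPKM in the library labelled USP49 knockdown and 89.0 FPKM in the control library. All 495 bases of that exon overlap GATC on the opposite strand, and since no strand-marking step is described, the fragments of the pair cannot be told apart there.

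SRSF11, which contacts U2AF and other SR proteins, had the highest ratio of the family. It had 121 FPKM (117 to 124) in the library labelled USP49 knockdown and 99.3 FPKM (95.9 to 103) in the control library, a log2 ratio of 0.28. Its depth-scaled fragment ratio was 1.47, with an exact interval of 1.42 to 1.53. That count includes 2671 fragments of a model that keeps an intron of 3712 bases in the library labelled USP49 knockdown. It leaves out 1946 fragments of a strandless model over the same intron in the control library. On RefSeq exons the values were 108 FPKM in the library labelled USP49 knockdown and 97.6 FPKM in the control library, a ratio of 0.15, and with models of either strand or none 0.13. Its 13 blocks of coding exons were compared with each model's fragments spread evenly over its length. The ratio was lowest, at 0.0089, in the last block, which holds 1411 bases, and reached 0.28 in the others. The model that keeps the intron ends inside that last block. The extra level in the library labelled USP49 knockdown rested on 1 assembled model, described with the retained introns. Without it, on RefSeq forms alone, the ratio was −0.03.

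**Figure D2:**
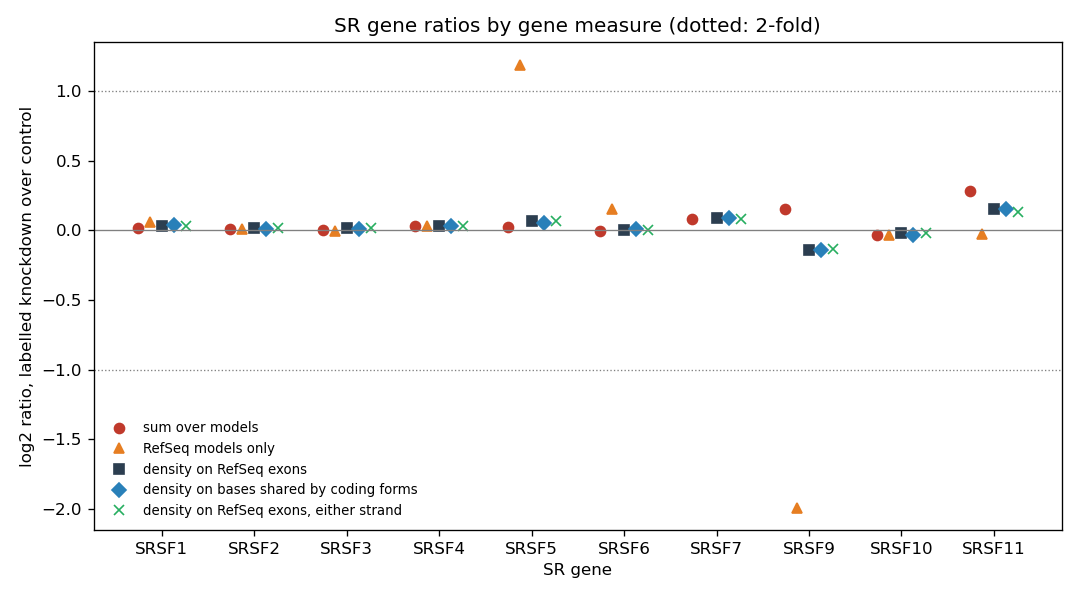
Log2 ratios of the library labelled USP49 knockdown over control for the 10 SR genes under 5 gene measures, each point 1 measure of 1 gene, with dotted lines at 2-fold. The points lie close together except for SRSF5, SRSF6, SRSF9 and SRSF11. Models of these genes differed in introns or ends between the libraries, but so did those of SRSF1 and SRSF3, whose points lie close. SRSF9 has 0.16 by the sum, −0.14 on exons and −1.99 on RefSeq forms alone. SRSF7 has no point for RefSeq forms alone, because these were listed at 0.

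Poison-exon or other noncoding forms were listed by RefSeq for 5 of the genes, and 3 of them carried fragments. The share of a gene's fragments on the NR_ form was higher in the library labelled USP49 knockdown for SRSF3 and SRSF6 and close to equal for SRSF2. Fragments are divided between overlapping models by the authors' assembly, so the Clopper-Pearson intervals below cover counting error only. Among all 252 genes with NM_ and NR_ forms, 300 or more fragments in each library and an NR_ form with fragments in at least 1 library, 67.1% had intervals that did not overlap, and 31.3% of the 252 had them apart with the share higher in the library labelled USP49 knockdown. Of the SR genes that met this rule, SRSF2, SRSF3 and SRSF6, the last 2 did so.

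The SRSF2 cassette is an exon of 104 bases in NR_036608, at 72243449 to 72243552 on chromosome 17 (hg18, minus strand). It lies past the coding stop, so no stop codon was read in it. NR_036608 held 11.99% (11.4 to 12.6) of SRSF2 fragments in the library labelled USP49 knockdown and 11.7% (11.1 to 12.3) in the control library. Its level was 38.7 FPKM in the library labelled USP49 knockdown and 37.2 FPKM in the control library. The spliced coding form NM_001195427 had 184 FPKM in the library labelled USP49 knockdown and 187 FPKM in the control library. NM_003016, which keeps the whole intron of 995 bases around the cassette as part of its last exon, had 76.3 FPKM in the library labelled USP49 knockdown and 72.5 FPKM in the control library. SRSF2 was 1 of 5 SR genes whose models had identical introns in the libraries. It shares 293 exonic bases with MFSD11 on the opposite strand and 15 with MIR636.

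The SRSF3 poison exon of 456 bases lies at 36675576 to 36676031 on chromosome 6 (hg18), inside the intron at 36674739 to 36676906 that the coding form removes. NR_036610 had 11.03 FPKM (10.0 to 12.1) in the library labelled USP49 knockdown and 8.28 FPKM (7.29 to 9.27) in the control library. The coding form NM_003017 had 33.6 FPKM (31.9 to 35.3) in the library labelled USP49 knockdown and 36.5 FPKM (34.6 to 38.4) in the control library. NR_036610 thus held 20.7% (19.4 to 21.99) of the gene's fragments in the library labelled USP49 knockdown and 15.9% (14.6 to 17.2) in the control library, a difference of 4.77 points. Of the 252 genes 67.9% differed by as much or more, and the median absolute difference was 13.1 points. The junction index, the FPKM of models with an intron beside the exon over that plus the FPKM of models that skip it, was 24.7% in the library labelled USP49 knockdown and 18.5% in the control library. Coverage of the exon relative to its flanks, a measure added after the models were seen, was 35.7% in the library labelled USP49 knockdown and 29.8% in the control library. This coverage is taken from the FPKM of the models over those bases, not from reads. It counts an assembled model that keeps the intron, with 7.63 FPKM in the library labelled USP49 knockdown and 7.25 FPKM in the control library.

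The SRSF6 poison exon of 268 bases lies at 41521207 to 41521474 on chromosome 20 (hg18), inside the intron at 41520564 to 41521824. NR_034009 had 13.3 FPKM (12.2 to 14.4) in the library labelled USP49 knockdown and 9.39 FPKM (8.37 to 10.4) in the control library. The coding form NM_006275 had 66.7 FPKM (64.7 to 68.8) in the library labelled USP49 knockdown and 62.5 FPKM (60.3 to 64.7) in the control library. The share of NR_034009 was 17.6% (16.7 to 18.6) in the library labelled USP49 knockdown and 11.8% (10.97 to 12.8) in the control library, a difference of 5.78 points that 65.5% of the 252 genes matched or passed. The control library had in addition an assembled model of 8.50 FPKM that starts in the intron. Its 753 fragments were in the gene's total but not counted as the poison form. With RefSeq forms only the difference was 3.75 points. This model holds the poison exon inside a longer exon, which the coverage measure counts. With it counted, the direction turned: coverage of the exon relative to its flanks was 16.6% in the library labelled USP49 knockdown and 23.5% in the control library. In FPKM the exon had 13.3 in the library labelled USP49 knockdown and 17.9 in the control library.

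**Figure D3:**
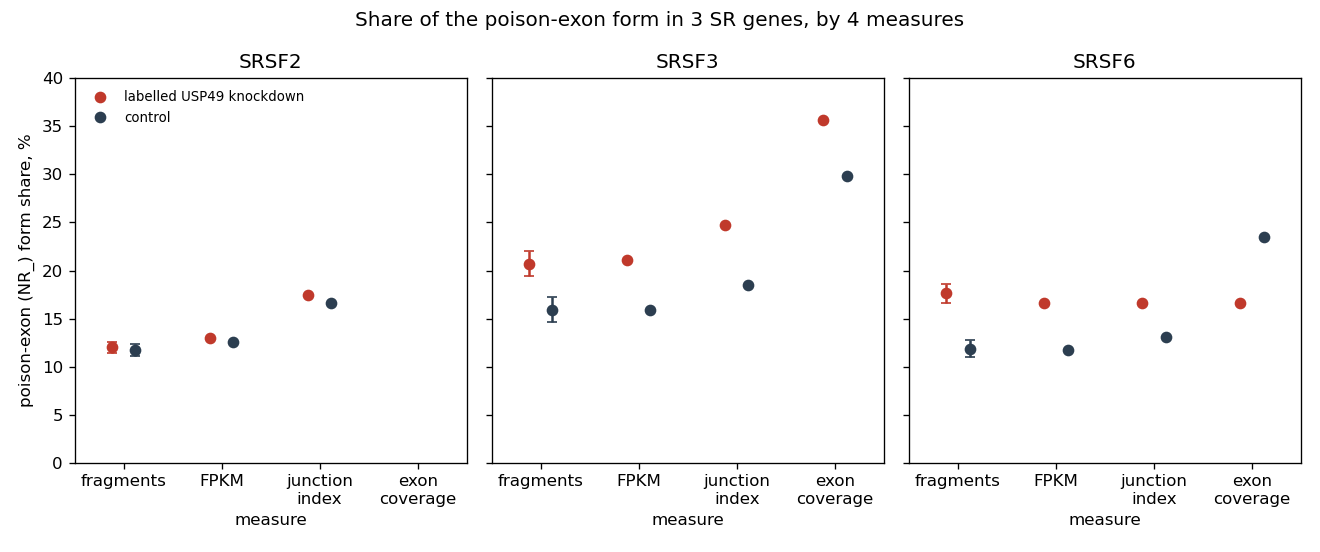
Share of the poison-exon form of SRSF2, SRSF3 and SRSF6 in percent, by fragments (with 95% Clopper-Pearson intervals), by FPKM, by the junction index and by exon coverage, with the library labelled USP49 knockdown in red left of control in dark blue. SRSF2 is nearly equal by fragments, at 11.99% in the library labelled USP49 knockdown and 11.7% in control, SRSF3 is higher in the library labelled USP49 knockdown by all 4 measures, and SRSF6 turns round by exon coverage, at 16.6% in the library labelled USP49 knockdown and 23.5% in control. SRSF2 has no exon coverage, because its coding form NM_003016 contains the exon.

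By the junction index 52 of 68 NR_ cassette exons, or 76.5%, differed by 5 points or more in either direction. Of the SR exons only that of SRSF3 did, with 6.24 points, against 3.57 for SRSF6 and 0.789 for SRSF2. Differences as large as that of SRSF3 were seen in 69.1% of these exons, so its size does not stand apart from the background between these libraries.

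NR_034041, the noncoding form of SRSF1, keeps the 200-base intron and splices out another inside the last exon. It was listed at 0 in both libraries. If every fragment could tell the forms apart, counting would allow it up to 0.0130% with 0 of 23142 fragments in the library labelled USP49 knockdown. In the control library it would allow up to 0.0182% with 0 of 16518. For NR_034035 of SRSF10 the limit on the same terms was 16.7% with 0 of 18 fragments in the library labelled USP49 knockdown and 18.8% with 0 of 16 in the control library. Most bases of both forms are shared with other forms, and the assembly divided the fragments there. These limits do not cover that division, so they do not bound the share of either form. GENCODE's decay-class transcripts of the SR genes name 14 cassette exon lengths that its coding forms lack. In models with fragments named for the genes, inner exons had 2 of these lengths, those of the SRSF3 and SRSF6 exons above. The other 12 matched no inner exon, among them 5 of SRSF4, 3 of SRSF7 and 1 of SRSF9 and SRSF11 each. Only lengths were compared, so an exon held inside a longer exon was missed. Strandless models, which span introns of SRSF7, were not searched. That no inner exon matches does not show that the RNA lacked the exon.

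**Figure D4:**
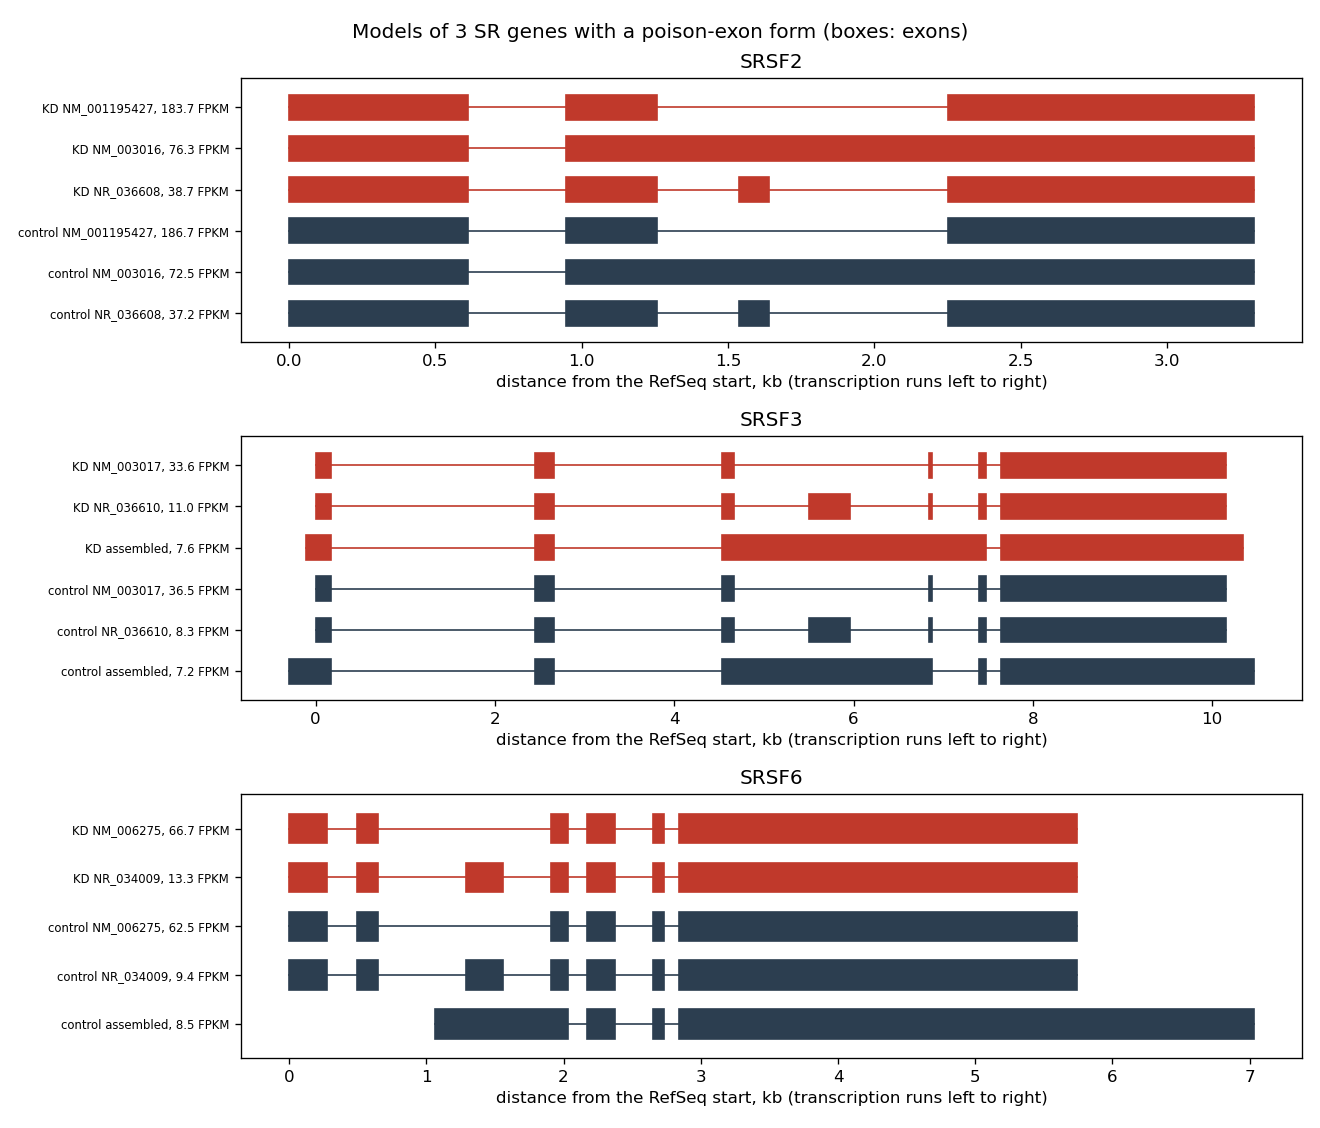
Transcript models of SRSF2, SRSF3 and SRSF6 with their depth-scaled FPKM, boxes for exons and lines for introns, drawn to scale in kb from the RefSeq start, with the library labelled USP49 knockdown (KD, red) above the control library (dark blue). SRSF2 has the same 3 models in both libraries. The assembled SRSF3 models keep different introns in the libraries, and the assembled SRSF6 model of 8.50 FPKM is in control only.

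Introns kept in otherwise spliced models were the other difference in form. Of 62 introns in coding SR forms, 7 were kept by a model of the gene's strand, and 4 of the 7 differed by 5 points or more between the libraries. Among all 2640 introns with such a model 76.6% did. Of the 4 introns 2 were kept more and 2 less in the library labelled USP49 knockdown. Retention is the FPKM of models that span the intron within an exon over that plus the FPKM of models that splice it.

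The 200-base intron of SRSF1, at 53437961 to 53438160 on chromosome 17 (hg18), was kept at 0% in the library labelled USP49 knockdown and 14.8% in the control library. NM_001078166, the coding RefSeq form that keeps it, was listed at 0 in the library labelled USP49 knockdown and had 24.3 FPKM from 2225 fragments in the control library, 13.5% of the gene there. NM_006924, the main coding form, had 141 FPKM in the library labelled USP49 knockdown and 111 FPKM in the control library. Each library also had an assembled model that splices the same intron and runs past the RefSeq end of the transcript. In the library labelled USP49 knockdown it had 6 exons, 15823 exonic bases and 25.2 FPKM from 7950 fragments, and also reached past the RefSeq start. In the control library it had 3 exons, 9534 exonic bases and 28.7 FPKM from 4466 fragments, and lacked the first exon. The gene's sum stayed close, with a ratio of 0.02. Another form listed at 0 in 1 library was NM_001039465 of SRSF5, which starts with a longer first exon and had 22.6 FPKM in the library labelled USP49 knockdown and 0 in the control library. These were 2 of 13 SR forms tested, where 23% of 6783 forms of all genes were listed at 0 in one library and held 10% or more of their gene in the other.

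SRSF5, known in rat as a gene induced in regenerating liver, was split over different models in the libraries. NM_006925 had 109 FPKM in the library labelled USP49 knockdown and 57.2 FPKM in the control library. The library labelled USP49 knockdown had 3 assembled models of 61.2, 22.7 and 19.4 FPKM, and the control library had 2 of 140 and 34.5 FPKM, with last exons that end before the RefSeq end. The gene shares 269 exonic bases with LOC100289511 on the opposite strand. On RefSeq forms alone the ratio was 1.19, past 2-fold, while it was 0.02 by the sum and 0.06 on exons. The intron of 1215 bases, at 69305722 to 69306936 on chromosome 14 (hg18), was kept at 17.9% in the library labelled USP49 knockdown and 14.9% in the control library. The next but one, of 88 bases, was kept at 8.27% in the library labelled USP49 knockdown and 14.9% in the control library.

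In SRSF11 an intron of 3712 bases, at 70466827 to 70470538 on chromosome 1 (hg18), was kept at 19.4% in the library labelled USP49 knockdown and 0% in the control library. The model that keeps it had 23.4 FPKM and 2671 fragments, and holds a further exon of 33 bases near its end. The control library had no such spliced model, but a single unspliced model with no strand, of 6541 bases and 18.9 FPKM, covered the same intron. With models that lack a strand counted, retention was 19.4% in the library labelled USP49 knockdown and 15.97% in the control library. The coding forms NM_004768 and NM_001190987, which differ by a few bases at exon ends, had 57.2 and 40.1 FPKM in the library labelled USP49 knockdown and 71.7 and 27.6 FPKM in the control library.

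SRSF7 had no retaining model on its own strand. A strandless model had 18.0 FPKM and 6832 bases in the library labelled USP49 knockdown, and one of 19.2 FPKM and 6110 bases lay there in the control library. With these counted, 5 introns were kept at 12.8% in the library labelled USP49 knockdown and 14.2% in the control library. The intron of 308 bases was kept at 12.8% in the library labelled USP49 knockdown and 0% in the control library, where the model ended before it.

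SRSF3 kept the intron of 2168 bases that holds its poison exon at 18.5% in the library labelled USP49 knockdown and 16.6% in the control library. Its intron of 517 bases was kept at 14.6% in the library labelled USP49 knockdown and 0% in the control library. The assembled model spanned both introns in the library labelled USP49 knockdown and 1 of them in the control library. SRSF2 kept its 995-base intron at 29.4% in the library labelled USP49 knockdown and 28.0% in the control library.

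**Figure D5:**
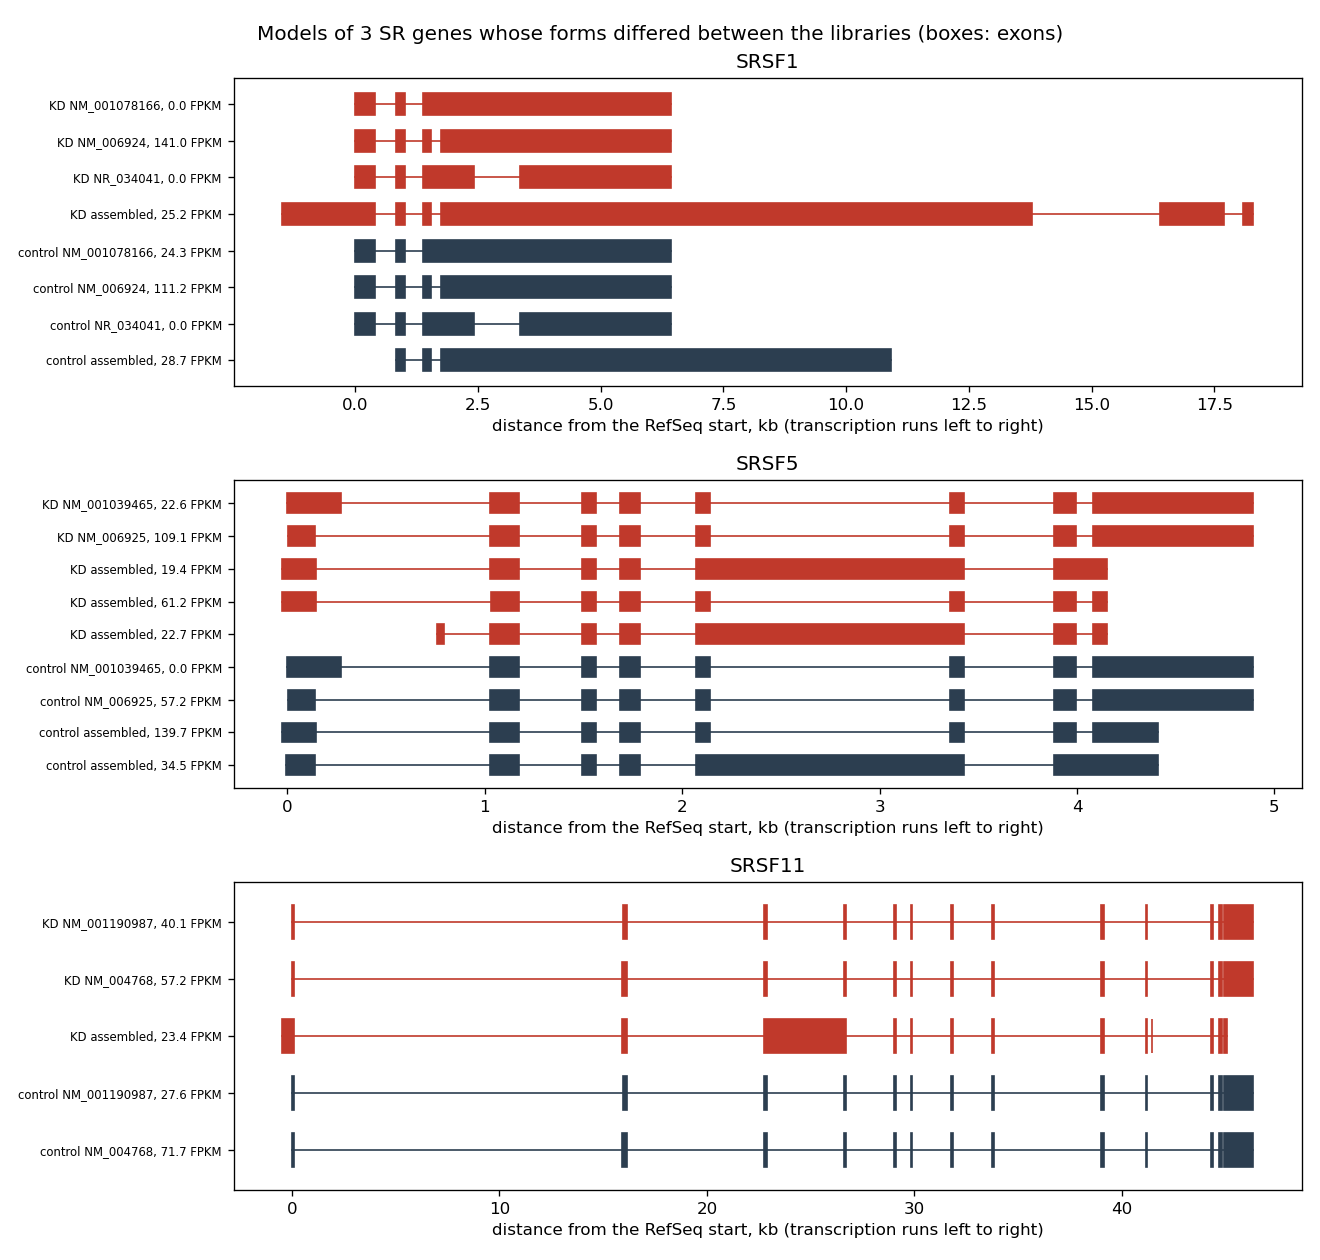
Transcript models of SRSF1, SRSF5 and SRSF11 with their depth-scaled FPKM, drawn to scale in kb from the RefSeq start, with the library labelled USP49 knockdown (KD, red) above the control library (dark blue). NM_001078166 of SRSF1 is at 0 in the upper set and at 24.3 FPKM in the lower, and the SRSF11 model that keeps the 3712-base intron, at 23.4 FPKM, is in the upper set only. Models with no strand are not drawn.

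Lists of genes that act with the SR proteins or in decay, or whose transcripts are sent to decay, had medians within 0.1 of that of all genes. The lists share some members, such as TRA2B. Their counts above and below 0 moved with scaling as those of the SR genes did. Of 21 kinases, cofactors and related proteins 20 were measured, with 10 above and 10 below 0, a median of −0.0089 and 0 past 2-fold, where 3.41% of all genes were. With TPM 4 lay above and 16 below 0. The largest ratios by the sum were those of CLK2, U2AF1 and TRA2B. CLK2, a kinase that phosphorylates SR proteins, had 13.6 FPKM in the library labelled USP49 knockdown and 22.4 FPKM in the control library, a ratio of −0.68, and −0.33 on exons. U2AF1, which reads the end of the intron, had 93.9 FPKM in the library labelled USP49 knockdown and 134 FPKM in the control library (−0.51, and −0.17 on exons). TRA2B, an SR-like protein with a poison exon of its own, had 207 FPKM in the library labelled USP49 knockdown and 154 FPKM in the control library. Its ratio of 0.42 by the sum stood against −0.08 on exons.

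The factors of nonsense-mediated decay and of the exon junction complex, which set how long poison-exon forms last, were measured in 15 of 15 cases. Their median was 0.04, and 8 lay above 0 and 7 below. With TPM 4 lay above and 11 below. MAGOHB, a copy of the exon junction protein MAGOH, was the 1 of 15 past 2-fold, beside 3.41% of all genes, with 7.89 FPKM in the library labelled USP49 knockdown and 20.2 FPKM in the control library (−1.26), but its ratio on exons was 0.15. SMG1, the kinase of UPF1, had 34.9 FPKM in the library labelled USP49 knockdown and 20.6 FPKM in the control library (0.73), and 0.04 on exons. UPF3A, a partner of UPF2, had a ratio of 0.71 by the sum but 0.12 on exons. On exons 0 of the 15 were past 2-fold, beside 1.12% of all genes.

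Other genes with poison exons or decay-bound forms were measured in 11 of 11 cases. Their median was 0.03, and 6 lay above 0 and 5 below, or 3 and 8 with TPM. HNRNPDL, which autoregulates by splicing within its last exons, was the 1 of 11 past 2-fold, beside 3.41% of all genes, with 76.2 FPKM in the library labelled USP49 knockdown and 173 FPKM in the control library (−1.18), and 0.02 on exons. For HNRNPD the ratio was −0.47 by the sum, against −0.03 on exons, and TRA2B is given above. Known targets of nonsense-mediated decay were measured in 10 of 10 cases, with 6 above 0 and 4 below, or 2 and 8 with TPM. Of these 10, 0 were past 2-fold, beside 3.41% of all genes. Their median was 0.07 by the sum, and 0.04 on exons. GAS5, a host of small nucleolar RNAs, had 23.4 FPKM in the library labelled USP49 knockdown and 43.3 FPKM in the control library (−0.86), and −0.13 on exons. SNHG12 had 0.51 by the sum, against 0.01 on exons. SNHG8 had −0.27 by the sum, against −0.09 on exons.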

How the data were processed

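The deposited files hold 1 transcript assembly per library, made with Cufflinks and guided by RefSeq, per the file headers and columns. Per the submitters' processing notes the tools were TopHat, Bowtie, SAMtools, Picard, Cufflinks and bedtools on hg18, with no version given in the sources used here. The value the authors deposited for each model is named FPKM but is not divided by depth. In loci with 1 model its interval, read as 2 Poisson SD, gave a whole fragment number within 0.02 in 18603 of 19675 loci in the library labelled USP49 knockdown and 17406 of 18346 in the control library. For RefSeq and spliced models, values followed fragments over 2 × (length − 47 bases) in 4697 of 4718 such loci checked in the library labelled USP49 knockdown and 4694 of 4715 in the control library. Unspliced assembled models followed a larger correction, taken from the median of their loci as 252.2 bases in the library labelled USP49 knockdown and 245.9 in the control library. Fragments were computed from these relations, or from the interval for single unspliced and very short models, and FPKM were scaled to their sum. A gene's interval by the sum joins the deposited intervals of its models as the root of their summed squares. On exons it is 2 Poisson SD of the fragments. Intervals cover counting error only, as PCR copies are not independent molecules.

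RefSeq accessions were named through a RefSeq table of current symbols (39319 of 41157 by accession), used for names only. Of the SR genes 7 have pseudogenes there, so the division of their fragments is uncertain. The design took these 10 genes, USP49 and, in each list, the 3 members with the largest ratio. The lists and their members were chosen with earlier results of these data known. Genes counted had a mean of 1 FPKM or more, and exon density needed 300 exonic bases. A count of 0 was given a limit of 3 fragments. Python 3.11.15, NumPy 2.4.6, SciPy 1.17.1 and Matplotlib 3.10.9 were used. Alternatives were pseudocounts of 0.1 and 5 FPKM, other scalings, RefSeq models only, exon densities and other share measures. Chromatin experiments named in the protocols were not analysed here.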

Additional observations from a re-analysis of the deposited data

How the results depend on the processing

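Of the SR genes 0 were past 2-fold under 9 of the 10 gene measures and scalings run, and 2 with RefSeq models only, SRSF5 higher (1.19) and SRSF9 lower (−1.99) in the library labelled USP49 knockdown. The share of all genes past 2-fold with RefSeq models only was not computed, so this count cannot be read against a background. Among SRSF7, SRSF9 and SRSF11, whose intervals did not overlap, the sign turned for SRSF11 with RefSeq models only (−0.029) and for SRSF7 with TPM (−0.061). For SRSF9 the sign turned with RefSeq models only (−1.99), density on RefSeq exons (−0.14), on bases shared by coding forms (−0.14) and on either strand (−0.13). Ratios nearer 0 turned too: SRSF1 (−0.12), SRSF2 (−0.14), SRSF3 (−0.11), SRSF4 (−0.09) and SRSF5 (−0.12) with TPM, SRSF3 with RefSeq models only (−0.0061), and SRSF10 with no scaling (0.04). SRSF6 turned above 0 with no scaling (0.28), RefSeq models only (0.15), density on RefSeq exons (0.0048), on bases shared by coding forms (0.01) and on either strand (0.0048). TPM moved the median of all genes to −0.06 and of the SR genes to −0.10, and no scaling moved them to 0.26 and 0.30; the SR genes then split into 2 above and 8 below 0 with TPM and 10 above and 0 below with no scaling. The background share past 2-fold was 1.97% with a minimum of 5 FPKM and 1.12% on exons, beside 3.41%. Its split of 185 genes higher and 212 lower became 310 and 169 with no scaling. The SRSF3 difference in NR_ share was 6.72 points with RefSeq forms only, and that of SRSF6 was 3.75 with RefSeq forms only, 3.57 by the junction index and −6.86 by exon coverage. The cause was not tested beyond the models described in the results. Retained introns 5 points or more apart numbered 4 with and without strandless models, but not the same 4: with them the SRSF11 intron of 3712 bases fell to 3.44 points and the SRSF7 intron of 308 bases entered at 12.8 points, among 13 introns instead of 7. The alternatives added after the data were seen were density on either strand, exon coverage and strandless models. No paired analysis was possible because there was 1 library per group, and for the same reason no library could be left out. The depth limits SRSF10 most.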
